A study of Mus musculus with 14 samples.

Results

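The arginase and polyamine pathway was followed in mouse bone marrow-derived macrophages (BMDMs) through 10 genes: Arg1, Arg2, Odc1, Srm, Sms, Sat1, Oat, Amd1, Azin1 and Slc7a2. They were chosen by symbol from the 25239 gene symbols of the RNA-seq table, and all 10 passed the filter on low counts. KO macrophages came from Ezh2fl/fl;LysM-Cre+/- mice, whose Cre recombinase is driven by the promoter of lysozyme M, a myeloid gene, and WT macrophages from littermate controls, whose Cre and floxed alleles the labels do not give. Each genotype was kept for 24 h in conditioned medium (CM) from the mouse hepatoma line Hepa1-6, or in complete DMEM (control medium). All cells had first been grown from marrow for 7 to 10 days with L929 cell medium, a source of macrophage colony-stimulating factor. There were 3 KO libraries in CM, 3 KO libraries in control medium, 4 WT libraries in CM and 4 WT libraries in control medium. No medium conditioned by another cell type was included, and the ages and sexes of the mice are not given in the sources used here. Whether the libraries of a group stem from separate animals is not stated, and the p-values then rest on a spread between libraries that may be technical.

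Arginase splits arginine into urea and ornithine, and in macrophages Arg1 is a classic gene of alternative activation that competes with the nitric oxide synthase Nos2 for arginine. Ornithine then goes either to putrescine, through ornithine decarboxylase (Odc1), or towards proline, through ornithine aminotransferase (Oat). Putrescine is extended to spermidine by Srm and to spermine by Sms, with aminopropyl groups that Amd1 prepares, and Sat1 acetylates the products for export or breakdown.

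Summed exon counts per library were 40.2 to 61.5 mega-counts (M) in KO in CM, 41.8 to 54.4 M in KO in control medium, 41.3 to 85.8 M in WT in CM and 45.2 to 82.1 M in WT in control medium. WT libraries 3 and 4 of both media stood apart: they held 80.4 to 85.8 M counts against 40.2 to 61.5 M in the other 10, and they differed from WT libraries 1 and 2 of the same medium far more than from each other (chi-square of the counts per degree of freedom 56.7 to 97.2, against 9.02 to 21.9 for the other pairs within a group). The labels name no batch. Calls and values of named genes that moved with WT libraries 1 and 2 as the only WT libraries are given beside the result. In Ezh2, the count per base of the 81 and 85 bp exons, as a percentage of that of the other Ezh2 exons, was 7.22 to 19.3% in KO in CM and 94 to 143% in WT in CM, and 2.07 to 31.7% in KO in control medium and 103 to 170% in WT in control medium. These exons were chosen after their values were seen. Over the whole gene, Ezh2 averaged 27.1 CPM in KO and 35.7 CPM in WT in CM (log2 difference -0.40 ± 0.10, edgeR adjusted p = 0.0334). In control medium it averaged 18.6 CPM in KO and 23.0 CPM in WT, which was not called (-0.31 ± 0.10, edgeR adjusted p = 0.0761). Macrophage markers were abundant in all libraries, but not all were level between groups. Of the 8, 3 rose and 2 fell with CM in each genotype. Itgam (1.44 in KO and 1.30 in WT) and Mrc1 (1.24 and 1.07) rose, and Adgre1 fell (-0.96 and -0.69). Over all tested genes 20% rose and 18.2% fell in KO, and 19.3% and 18% in WT. Lyz2, the lysozyme M gene, was lower in KO than in WT in CM (-1.11, edgeR adjusted p = 1.83e-06) and in control medium (-1.10, edgeR adjusted p = 9.46e-07). Of the 10 liver markers Alb, Serpina1a, Fgb and Tat were at 0 counts in all 4 groups, and the list summed to 4.33 to 7.42 CPM over all libraries. Nearly all of that sum was Apoa2 and Afp, with group means of 3.12 to 4.02 CPM and 1.68 to 2.53 CPM. Afp was higher in KO than in WT in control medium (0.58 ± 0.16, edgeR adjusted p = 0.0445). That call was lost against WT libraries 1 and 2 alone (0.65, edgeR adjusted p = 0.109) and in 12 of the 14 fits that left out 1 library. In bulk RNA, a change in the number of cells that express a gene and a change in RNA per cell cannot be told apart.

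Conditioned medium moved most of the pathway in both genotypes, while few of its genes were called between KO and WT. Levels are in CPM, counts per mega-count of the library after TMM scaling, and a gene was called at a Benjamini-Hochberg adjusted p below 0.05 in edgeR's quasi-likelihood test over 13311 genes. In KO macrophages CM raised 6 of the 10 genes and lowered 2, beside 38.1% of all tested genes called (20% higher and 18.2% lower). In WT macrophages it also raised 6 and lowered 2, beside 37.3% of all tested genes called (19.3% higher and 18% lower). The direction of the calls over all genes depended on the scaling. With TMM, 2659 were higher and 2418 lower with CM in KO, and 2570 higher and 2390 lower in WT. With library totals alone, 1941 were higher and 3624 lower in KO, and 1957 higher and 3501 lower in WT. The median log2 fold change of the 10 genes was 0.42 in KO and 0.36 in WT, against -0.01 over all tested genes in each genotype. The genes that rose were Arg1, Arg2, Slc7a2, Odc1, Srm and Oat in both genotypes, and those that fell were Sms and Sat1. KO libraries in CM lay above WT libraries in CM in Arg1 and Slc7a2, which were the 2 members called, beside 4.59% of all tested genes (3.1% higher and 1.49% lower). In control medium only Arg2 was called between KO and WT, as higher in KO, beside 5.32% of all tested genes (2.82% higher and 2.5% lower, or 375 and 333 genes, against 605 and 182 with library totals alone).

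**Figure D1:**
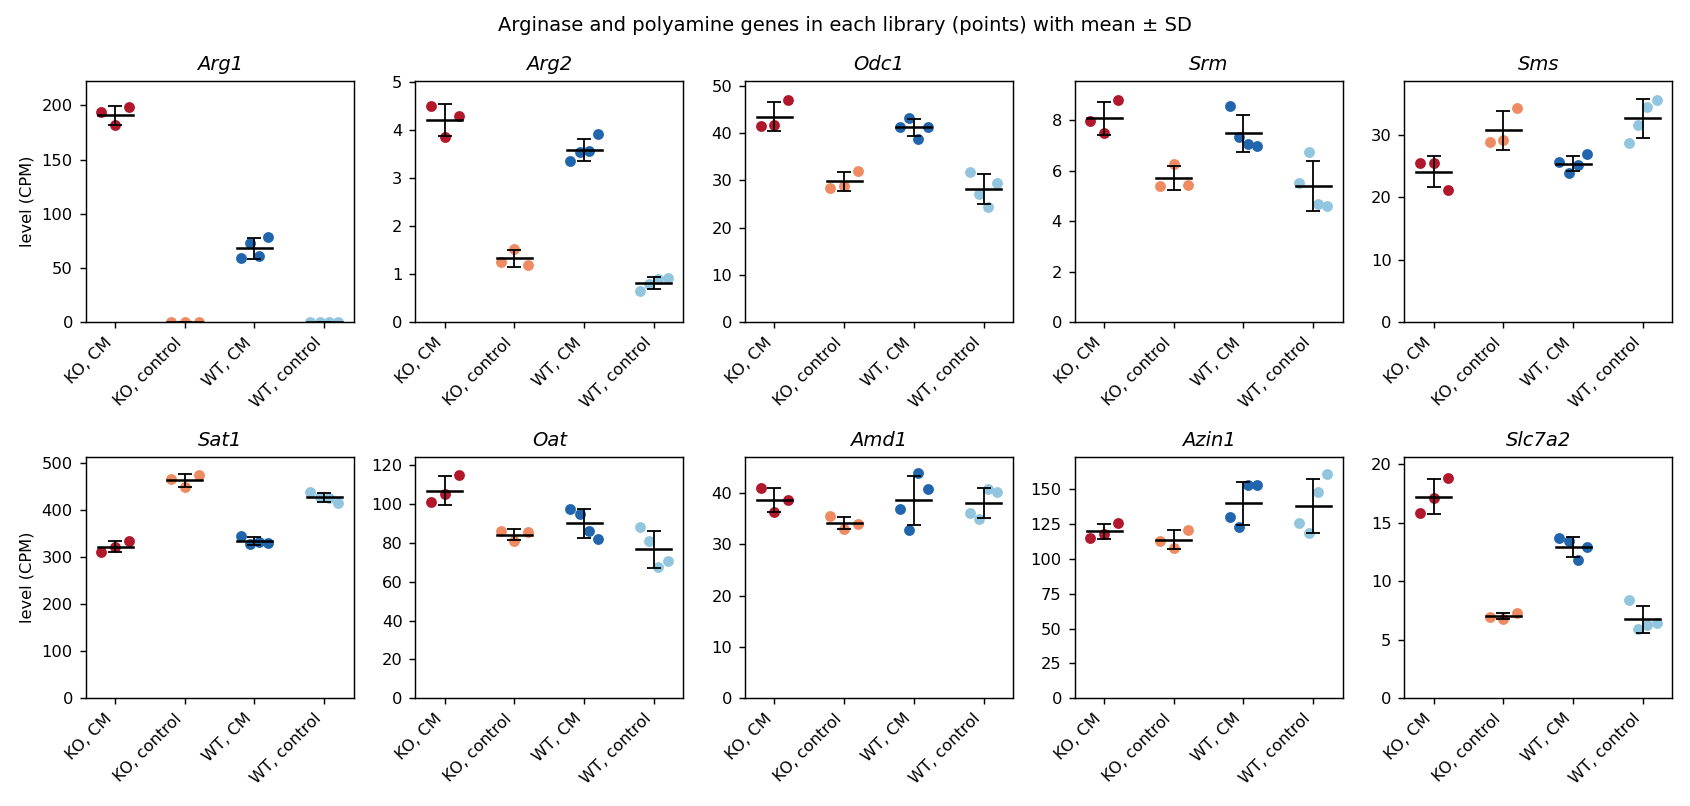
Level of each of the 10 genes in CPM (y axis, from 0) in every library (points), in 4 groups from left to right: KO in CM, KO in control medium, WT in CM and WT in control medium. Bars give the mean ± SD (n = 3 KO and 4 WT libraries per medium), and Arg1 stands at 182 to 198 CPM in KO in CM and 59.3 to 78.9 CPM in WT in CM but below 0.3 CPM in control medium.

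Arg1, the cytosolic arginase, lies on chromosome 10 (24915221 to 24927484, minus strand, GRCm38). Its level was 194, 182 and 198 CPM in the KO libraries in CM, against 0.291, 0.0526 and 0 CPM in the KO libraries in control medium. In WT it was 59.3, 73.4, 61.3 and 78.9 CPM in CM, against 0, 0, 0.0972 and 0.0476 CPM in control medium. All libraries in CM thus lay far above all libraries in control medium, and in CM every KO library lay above every WT library. The control libraries held 19 Arg1 counts over the 3 KO libraries and 12 over the 4 WT libraries, so the fold rests on few counts: CM over control was 1577-fold in KO (95% counting interval 1009.6 to 2619.5) and 1519-fold in WT (869 to 2939.7). These intervals cover counting error only, and they are too narrow where one fragment adds a count to more than one exon. The fitted log2 changes were 10.60 in KO (edgeR adjusted p = 3.62e-12) and 10.49 in WT (edgeR adjusted p = 1.93e-12). Their size depended on single control libraries: the KO value was 12.56 without KO control library 1, the WT value 11.46 without WT control library 3, and within WT libraries 1 and 2, whose control libraries held 0 Arg1 counts, it was 14.65. Such fitted values depend on the prior count and are no bound.

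Within CM, Arg1 averaged 191 ± 8.75 CPM in KO (SD, n = 3) and 68.2 ± 9.48 CPM in WT (SD, n = 4). The difference was 1.49 ± 0.17 on the log2 scale (SE), 2.8-fold, with edgeR adjusted p = 0.000255. It was as large against WT libraries 1 and 2 alone (1.53, edgeR adjusted p = 1.54e-05). DESeq2 gave the same fold with adjusted p = 0.153 and so did not call it. Each of the 8 Arg1 exons was higher in KO than in WT in CM, with no overlap between the libraries, by 1.13 to 1.81 on the log2 scale. In control medium the Arg1 counts, scaled by library size, were higher in KO than in WT in a ratio of 2.67 (95% counting interval 1.23 to 6.03). However, 16 of the 19 KO counts came from 1 library. The edgeR adjusted p was 0.343, or 0.167 against WT libraries 1 and 2 alone, which were at 0. Whether the response to CM differed between genotypes could not be resolved for Arg1, because it rests on these few control counts (interaction 0.11, edgeR adjusted p = 0.998).

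Some markers of other myeloid states also moved with CM. The 5 monocyte markers summed to 250 to 289 CPM in KO in CM and 190 to 252 CPM in WT in CM, against 47 to 53.6 CPM in KO and 40.2 to 52.2 CPM in WT in control medium, and 4 of the 5 rose with CM in each genotype. Among them Vcan, a matrix proteoglycan gene, was also higher in KO than in WT in CM (0.65 ± 0.11, edgeR adjusted p = 0.00358). The 9 neutrophil and granulocyte precursor markers summed to 86.9 to 94 CPM in KO in CM and 45.1 to 49.7 CPM in WT in CM, against 23.7 to 24.8 CPM in KO and 13.5 to 17.3 CPM in WT in control medium. Nearly all of the neutrophil marker sum was Mmp8, a neutrophil collagenase, at 89.2 ± 3.67 CPM in KO (n = 3) and 46.4 ± 2.51 CPM in WT (SD, n = 4) in CM, while Ly6g, a defining neutrophil surface marker, was at 0 in both groups in CM. Of the 6 neutrophil markers tested, 2 rose and 2 fell with CM in KO, and 2 rose and 1 fell in WT. Those that fell were S100a9 (-3.01, edgeR adjusted p = 0.00846) and Ltf (-2.78, edgeR adjusted p = 0.0145) in KO and Ngp (-2.50, edgeR adjusted p = 0.02) in WT, all granule or cytosolic protein genes of neutrophils. These falls rest on few counts, with group means of at most 0.798 CPM. In CM against control medium, KO held 14 and 129 S100a9 counts and 11 and 83 Ltf counts, and WT held 13 and 82 Ngp counts. Leaving out KO control library 2 ended the calls of S100a9 and Ltf, KO CM libraries 1 or 3 that of Ltf, and WT CM library 4 that of Ngp, which also did not pass within WT libraries 1 and 2 (edgeR adjusted p = 0.156). Besides Mmp8, Elane rose, by 3.64 in KO (27 against 2 counts, edgeR adjusted p = 0.0272) and by 3.77 in WT (44 against 3 counts, edgeR adjusted p = 0.00732). Its KO call was lost without KO CM library 2 or KO control libraries 1 or 3, and its WT call within WT libraries 1 and 2 (2.70, edgeR adjusted p = 0.12). The part of such cells in the Arg1 result was not tested.

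Arg2, the mitochondrial arginase, lies on chromosome 12 (79130777 to 79156301, plus strand). Its level was 4.49, 3.85 and 4.28 CPM in KO in CM, against 1.25, 1.53 and 1.2 CPM in KO in control medium. In WT it was 3.36, 3.54, 3.57 and 3.91 CPM in CM, against 0.652, 0.802, 0.899 and 0.916 CPM in control medium. The media did not overlap in either genotype, and in control medium every KO library lay above every WT library, whereas in CM the genotypes overlapped. CM raised Arg2 by 1.66 ± 0.15 in KO (log2 ± SE, edgeR adjusted p = 4.58e-07) and by 2.12 ± 0.14 in WT (edgeR adjusted p = 6.41e-09). In control medium Arg2 was higher in KO than in WT by 0.68 ± 0.15 (edgeR adjusted p = 0.0202). That call was lost without KO control library 2 (0.57, edgeR adjusted p = 0.115) and kept with only WT libraries 1 and 2 (0.87, edgeR adjusted p = 0.0421). It was also lost with only the compared groups in the fit (0.69, edgeR adjusted p = 0.103) and in the most-counted exon alone (0.22, edgeR adjusted p = 0.496). In CM the difference of 0.22 ± 0.13 did not pass (edgeR adjusted p = 0.324).

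The exons of Arg2 did not move alike. Its last exon (chromosome 12, 79155826 to 79156301, 476 bp in GENCODE M21) shares 285 bp with an exon of Vti1b, a vesicle transport gene on the other strand, and its exon of 105 bp lies wholly within the antisense RNA Gm48780. The library kit keeps the strand, per the labels' protocols, but the strand setting of the counting is not given in the sources used here. The last exon held 21.1 ± 3.72% of the Arg2 counts in KO in CM and 42.6 ± 0.709% in KO in control medium (SD, n = 3 each). In WT it held 29.4 ± 4.15% in CM and 63.4 ± 5.39% in control medium (SD, n = 4 each). The share was thus largest where Arg2 was lowest, and a part of the counts of that exon may belong to Vti1b, which was not tested.

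Without that exon, the other Arg2 exons stood at 3.32 ± 0.405 CPM in KO in CM and 0.761 ± 0.103 CPM in KO in control medium (SD, n = 3 each), and at 2.54 ± 0.155 CPM in WT in CM and 0.302 ± 0.0818 CPM in WT in control medium (SD, n = 4 each). This count was chosen after the data were seen. The increases with CM became 2.12 ± 0.20 in KO (edgeR adjusted p = 4.62e-07) and 3.01 ± 0.18 in WT (edgeR adjusted p = 3.38e-09). The difference between KO and WT in control medium became 1.29 ± 0.21 (edgeR adjusted p = 0.00327), while that in CM stayed below the threshold (0.39 ± 0.17, edgeR adjusted p = 0.178). For these exons the difference between genotypes in the response to CM was -0.90 ± 0.27 on the log2 scale and did not pass (edgeR adjusted p = 0.373).

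**Figure D2:**
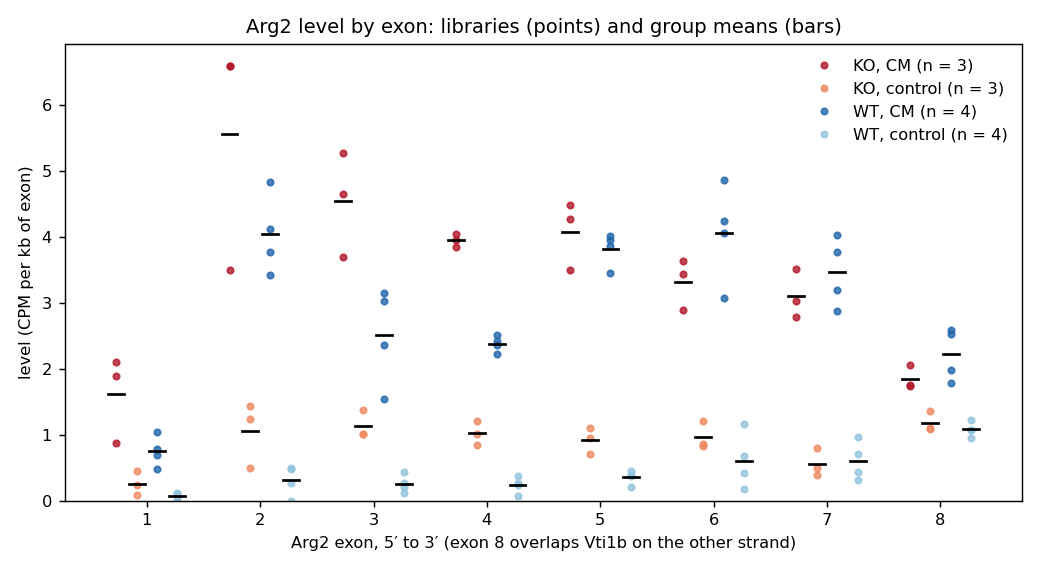
Level of Arg2 in CPM per kb of exon (y axis) for its 8 exons in transcript order (x axis), with a point per library and a black bar for the mean of each group (n = 3 KO and 4 WT libraries per medium). In control medium, exon 8, which overlaps Vti1b, stands above the other exons in the WT means, and its step between media is smaller than that of most other exons.

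Per base of exon, the arginases changed places between media. Arg1 made up 97.6 to 97.8% of the summed level of both arginases per kb in KO in CM, against 0 to 18.2% in KO in control medium. In WT it made up 94.3 to 95.2% in CM, against 0 to 9.4% in control medium. In every library in control medium Arg2 was therefore the main arginase transcript, although at a level of only 0.936 ± 0.123 CPM per kb in KO (n = 3) and 0.577 ± 0.0857 CPM per kb in WT (SD, n = 4).

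Slc7a2 encodes the cationic amino acid transporter CAT-2, which brings arginine into the cell, and lies on chromosome 8 (40862396 to 40922308, plus strand). The gene holds a pair of mutually exclusive exons that exchange part of the transporter, known in the literature as the source of its low-affinity and high-affinity forms. They are shown because both have their own entries in the deposited table. The exon of 140 bp lies at chr8:40908056-40908195 and that of 137 bp at chr8:40908398-40908534 (GRCm38, plus strand, sequence of the GENCODE M21 models), 5′ to 3′, with capitals for the bases that are not identical in a global alignment of the pair.
Slc7a2 exon of 140 bp: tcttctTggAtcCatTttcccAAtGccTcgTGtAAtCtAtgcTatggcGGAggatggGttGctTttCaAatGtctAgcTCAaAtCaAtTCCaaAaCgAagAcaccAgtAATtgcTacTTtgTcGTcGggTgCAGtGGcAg
Slc7a2 exon of 137 bp: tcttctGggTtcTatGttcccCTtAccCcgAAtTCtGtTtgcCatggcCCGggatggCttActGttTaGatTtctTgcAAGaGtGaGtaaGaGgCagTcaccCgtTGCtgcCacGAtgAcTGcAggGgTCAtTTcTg
In that alignment 84 of 140 positions were identical, or 60%.

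The Slc7a2 level was 15.8, 17.1 and 18.8 CPM in KO in CM, against 6.93, 6.77 and 7.31 CPM in KO in control medium. In WT it was 13.7, 13.4, 11.8 and 12.9 CPM in CM, against 8.36, 5.87, 6.22 and 6.44 CPM in control medium. Media did not overlap in either genotype, and in CM all KO libraries lay above all WT libraries. CM raised Slc7a2 by 1.30 ± 0.12 in KO (log2 ± SE, edgeR adjusted p = 4.54e-07) and by 0.95 ± 0.10 in WT (edgeR adjusted p = 2.52e-06). In CM it was higher in KO by 0.42 ± 0.11 (edgeR adjusted p = 0.0427), a call near the threshold that was lost when KO was set against WT libraries 1 and 2 only (0.35, edgeR adjusted p = 0.158), with a term that set WT libraries 3 and 4 apart (0.34, edgeR adjusted p = 0.0652) and in 11 of the 14 fits that left out 1 library. Without a single library the difference ranged from 0.35 to 0.48. The first exon of Slc7a2 lies within the noncoding RNA Gm26584 of the other strand, so some of its counts cannot be assigned with certainty.

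The 140 bp exon dominated in every group. The 137 bp exon had 0 of 98 counts over the pair in KO in CM, which allows a share of up to 3.06% at the limit of 3 counts (95% Wilson interval 0 to 3.77%), and 7 of 46 counts in KO in control medium (15.2%, 95% Wilson interval 7.57 to 28.2%). In WT it had 7 of 113 counts in CM (6.19%, 3.03 to 12.2%) and 4 of 65 in control medium (6.15%, 2.42 to 14.8%). Intervals and limits cover counting error only. No difference in the share passed an exact two-sided permutation test, with p = 0.4 for CM in KO, 1.0 for CM in WT, 0.143 for KO against WT in CM and 0.371 for KO against WT in control medium, and the 3 against 3 libraries of KO cannot go below 0.1.

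Odc1, the rate-limiting enzyme of polyamine synthesis, lies on chromosome 12 (17544794 to 17551505, plus strand). Its level was 41.6, 41.8 and 47 CPM in KO in CM, against 28.5, 28.8 and 32.1 CPM in KO in control medium. WT libraries held 41.3, 43.2, 38.8 and 41.4 CPM in CM, against 31.7, 27.2, 24.4 and 29.4 CPM in control medium. Media were separate in both genotypes, and the genotypes overlapped in both media. The increase with CM was 0.55 ± 0.09 in KO (edgeR adjusted p = 0.000163) and 0.55 ± 0.08 in WT (edgeR adjusted p = 3.58e-05), about 1.46-fold in each, and all 12 Odc1 exons were higher in CM in both genotypes.

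Azin1, the antizyme inhibitor that protects Odc1 from degradation, did not follow Odc1. Its level was 115, 118 and 126 CPM in KO in CM, against 113, 108 and 121 CPM in KO in control medium. WT libraries held 130, 123, 153 and 153 CPM in CM, against 126, 119, 148 and 161 CPM in control medium. In WT, libraries 3 and 4 were the higher ones in both media, and the media overlapped. The change with CM was 0.07 ± 0.11 in KO (edgeR adjusted p = 0.665) and 0.01 ± 0.09 in WT (edgeR adjusted p = 0.931). Between KO and WT it was -0.23 ± 0.10 in CM (edgeR adjusted p = 0.198) and -0.28 ± 0.10 in control medium (edgeR adjusted p = 0.11). With WT libraries 1 and 2 as the only WT libraries these differences were -0.07 and -0.10, while with the replicate number as a block the one in control medium was called (-0.21, edgeR adjusted p = 0.0389). The first exon of Azin1 lies within the antisense RNA Gm49077, so some of its counts cannot be assigned with certainty.

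Srm, spermidine synthase, had 7.97, 7.49 and 8.8 CPM in KO in CM, against 5.4, 6.26 and 5.46 CPM in KO in control medium. In WT it had 8.57, 7.35, 7.08 and 6.97 CPM in CM, against 5.52, 6.75, 4.71 and 4.61 CPM in control medium. The media did not overlap in either genotype. CM raised Srm by 0.50 ± 0.14 in KO (edgeR adjusted p = 0.0108) and by 0.48 ± 0.12 in WT (edgeR adjusted p = 0.00596), although within WT libraries 1 and 2 the increase of 0.37 did not pass (edgeR adjusted p = 0.0753) while within WT libraries 3 and 4 it was 0.60 (edgeR adjusted p = 0.00151). In its most-counted exon alone neither increase passed (0.63 in KO, edgeR adjusted p = 0.102, and 0.47 in WT, edgeR adjusted p = 0.156).

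Sms, spermine synthase on chromosome X, moved the other way. It had 25.5, 25.5 and 21.2 CPM in KO in CM, against 28.8, 29.1 and 34.3 CPM in KO in control medium. In WT it had 25.6, 23.9, 25.1 and 26.9 CPM in CM, against 28.7, 31.5, 34.5 and 35.6 CPM in control medium. All libraries in CM lay below those in control medium in both genotypes. Sms fell by 0.35 ± 0.10 in KO (log2 ± SE, edgeR adjusted p = 0.0107) and by 0.36 ± 0.09 in WT (edgeR adjusted p = 0.00347). The call in KO was lost without KO CM library 3 (edgeR adjusted p = 0.0608) or KO control library 3 (edgeR adjusted p = 0.0645), and in the most-counted exon alone (-0.16, edgeR adjusted p = 0.45). Within WT libraries 1 and 2 the change was -0.29 (edgeR adjusted p = 0.0547).

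Amd1, S-adenosylmethionine decarboxylase, had 41, 36.3 and 38.7 CPM in KO in CM, against 35.5, 33.1 and 33.9 CPM in KO in control medium. In WT it had 36.9, 32.8, 43.9 and 40.9 CPM in CM, against 36.1, 35, 40.9 and 40.3 CPM in control medium. The KO libraries in CM lay just above those in control medium and the WT groups overlapped. Neither change passed (0.18 ± 0.10 in KO, edgeR adjusted p = 0.169, and 0.02 ± 0.08 in WT, edgeR adjusted p = 0.868). The KO change passed in 5 alternative fits, among them the one with a term that set WT libraries 3 and 4 apart (0.18, edgeR adjusted p = 0.0215). All 8 exon entries of Amd1 carry counts identical to those of Amd2, a near-identical copy, so the table cannot tell the copies apart.

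Sat1, the acetyltransferase that starts polyamine breakdown, also lies on chromosome X (155213132 to 155216449, minus strand) and was the most abundant of the 10 genes. Its level was 310, 320 and 333 CPM in KO in CM, against 465, 448 and 473 CPM in KO in control medium. WT libraries held 345, 327, 331 and 329 CPM in CM, against 437, 427, 425 and 415 CPM in control medium. The media were widely separate in both genotypes, and in control medium every KO library lay above every WT library. Sat1 fell with CM by 0.53 ± 0.05 in KO (edgeR adjusted p = 5.4e-07) and by 0.35 ± 0.04 in WT (edgeR adjusted p = 7.41e-06), or to 0.695 and 0.782 of the level in control medium. The difference of 0.12 ± 0.05 between KO and WT in control medium did not pass (edgeR adjusted p = 0.133).

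The Sat1 transcript is known to carry, when polyamines are low, an extra exon with stop codons that sends it to decay. It is shown because the table counts it separately: it is exon 4 of a GENCODE M21 transcript model marked for nonsense-mediated decay, 110 bp at chrX:155215121-155215230 (GRCm38, minus strand). The sequence is given 5′ to 3′ on the strand of the gene, with capitals for the 3 stop codons in the reading frame of that model, the first of them at base 12 of the exon.
Sat1 exon of 110 bp: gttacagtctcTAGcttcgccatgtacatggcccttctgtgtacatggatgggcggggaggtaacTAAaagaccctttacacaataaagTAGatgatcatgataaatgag
Its count per base was 13 ± 1.02% of that of its neighbouring exons in KO in CM and 14.6 ± 1.47% in KO in control medium (SD, n = 3 each). In WT it was 14.4 ± 0.818% in CM and 15.4 ± 0.479% in control medium (SD, n = 4 each). The mean share was lowest in KO in CM, but the groups overlapped in each of the comparisons. The differences were -1.60 percentage points for CM in KO (exact permutation test, two-sided, p = 0.3), -0.979 for CM in WT (exact p = 0.114), -1.47 for KO against WT in CM (exact p = 0.114) and -0.858 for KO against WT in control medium (exact p = 0.314). None passed, and the smallest value adjusted over the 8 exon share tests was 0.381.

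**Figure D3:**
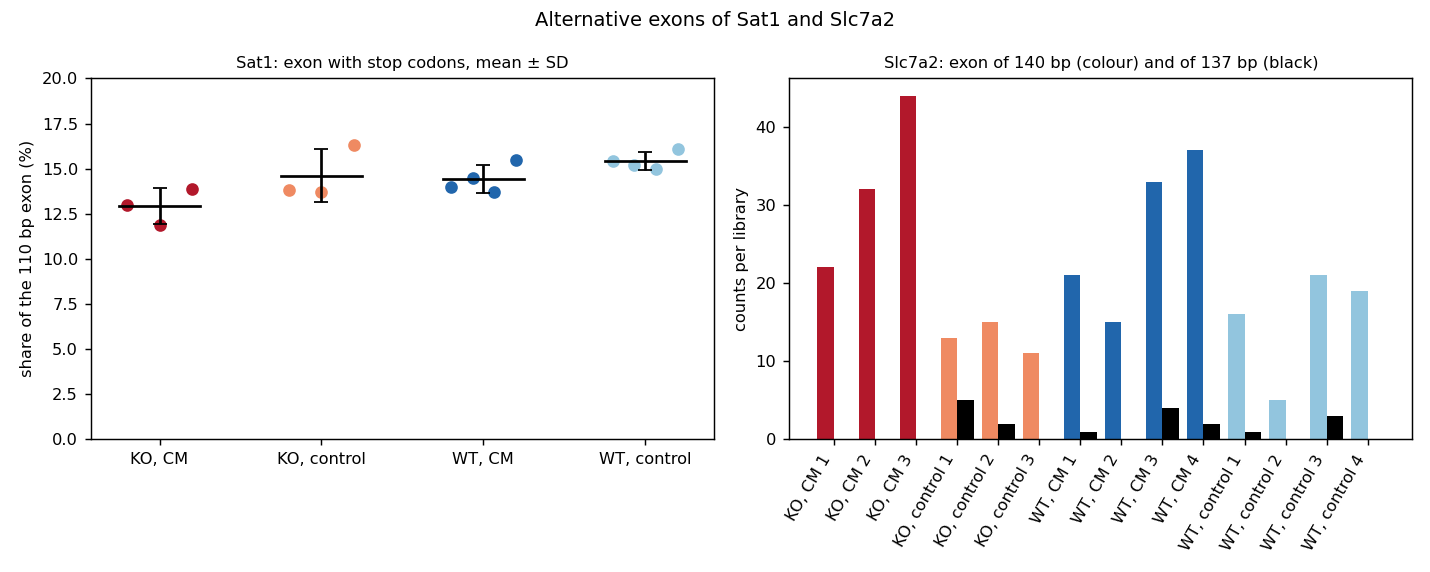
Left, the count per base of the 110 bp Sat1 exon as a percentage of that of its neighbouring exons in each library (points) with mean ± SD per group. Right, counts of the 140 bp (coloured bars) and 137 bp (black bars) exons of Slc7a2 in each library: the 137 bp exon has 0 counts in all 3 KO libraries in CM, and the Sat1 shares lie between 11.9 and 16.3%.

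Oat, the ornithine aminotransferase of mitochondria, lies on chromosome 7 (132557478 to 132576398, minus strand). Its level was 101, 105 and 115 CPM in KO in CM, against 86, 80.9 and 85.8 CPM in KO in control medium. WT libraries held 97.4, 95.1, 85.9 and 82.1 CPM in CM, against 88.1, 81.1, 67.4 and 70.5 CPM in control medium. The KO groups were separate and the WT groups overlapped. CM raised Oat by 0.35 ± 0.10 in KO (edgeR adjusted p = 0.00931) and by 0.23 ± 0.08 in WT (edgeR adjusted p = 0.0382). The WT call was lost without any of 5 single libraries, KO CM 2 (edgeR adjusted p = 0.0525), WT CM 1 (0.116), WT CM 2 (0.101), WT control 3 (0.118) or WT control 4 (0.109), and within WT libraries 1 and 2 (0.18, edgeR adjusted p = 0.0619). It was also lost with only the compared groups in the fit (0.23, edgeR adjusted p = 0.0922). With library totals alone neither genotype passed (0.24 in KO, edgeR adjusted p = 0.0662, and 0.15 in WT, edgeR adjusted p = 0.186). In CM every KO library lay above every WT library, but the difference of 0.25 ± 0.09 did not pass (edgeR adjusted p = 0.118) and was 0.16 against WT libraries 1 and 2 alone.

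**Figure D4:**
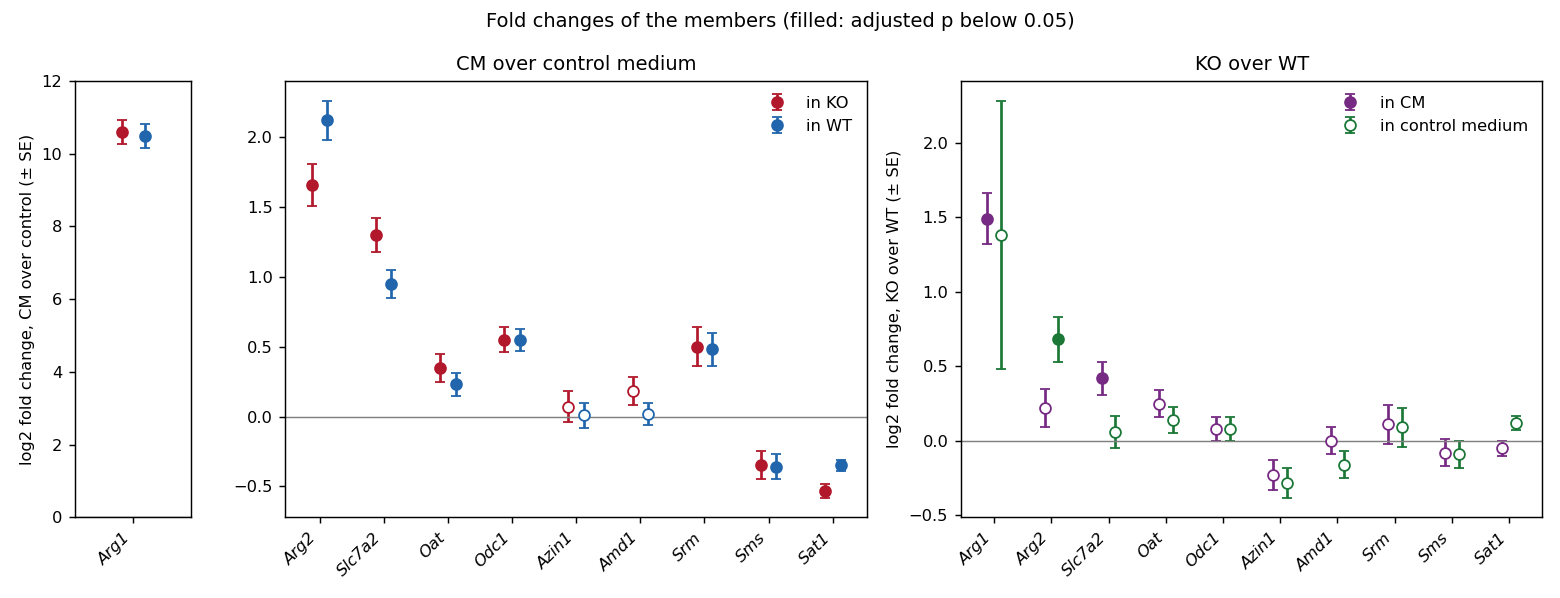
Log2 fold changes ± SE of the 10 genes (y axes), CM over control medium in KO (red) and WT (blue), with Arg1 on its own axis at the left, and KO over WT in CM (purple) and in control medium (green). Filled points had an edgeR adjusted p below 0.05: 8 genes for CM in each genotype, Arg1 and Slc7a2 for KO in CM and Arg2 for KO in control medium.

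The test of the difference between genotypes in the response to CM called none of the 10 genes, and 0% of the 13311 tested genes (1050 with an unadjusted p below 0.05, and 84 called by DESeq2). Of the 10 genes, 3 had an unadjusted p below 0.05. They were Sat1 (-0.17 ± 0.07, edgeR adjusted p = 0.512), Arg2 (-0.46 ± 0.20, edgeR adjusted p = 0.601) and Slc7a2 (0.35 ± 0.16, edgeR adjusted p = 0.609). For Odc1 the difference was -0.00 ± 0.12. The median difference over the 10 genes was 0.04, against 0.01 over all tested genes.

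Per kb of exon, Sat1 led the 10 genes in all 4 groups, at 251 ± 9.19 CPM per kb in KO in CM, 361 ± 10.1 in KO in control medium (SD, n = 3 each), 261 ± 6.32 in WT in CM and 333 ± 7.29 in WT in control medium (SD, n = 4 each). In KO in CM, Arg1 came second (130 ± 5.92 CPM per kb, n = 3), well apart from Oat (49.7 ± 3.47, n = 3). In WT in CM Arg1 (46.2 ± 6.42 CPM per kb, n = 4) and Oat (41.8 ± 3.40, n = 4) overlapped, and so did Azin1 and Odc1 (16.6 ± 1.84 and 16.2 ± 0.706). Amd1, Sms, Srm, Arg2 and Slc7a2 followed in both groups in CM, with Sms and Srm overlapping. In both groups in control medium Oat was second and Arg1 last, at 0.0775 ± 0.105 CPM per kb in KO (n = 3) and 0.0245 ± 0.0314 CPM per kb in WT (SD, n = 4).

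Among the other genes around the pathway, the proline arm went both ways. The counts of this and the following lists stand beside 20% of all tested genes higher and 18.2% lower with CM in KO, and 19.3% higher and 18% lower in WT. Of the 8 genes, CM raised 3 and lowered 2 in each genotype. P4ha1, a subunit of the collagen prolyl hydroxylase, rose by 0.66 ± 0.05 in KO (edgeR adjusted p = 7.96e-08) and by 0.47 ± 0.04 in WT (edgeR adjusted p = 5.96e-07). P4ha2 rose by 1.23 in KO and 0.69 in WT, and Aldh18a1, which makes the proline precursor from glutamate, by 0.73 in KO and 0.48 in WT. Prodh, which degrades proline, fell by 0.90 in KO and 0.70 in WT, calls that were lost in 4 and 9 of the 14 fits that left out 1 library, and the one in WT also within WT libraries 1 and 2 (-0.94, edgeR adjusted p = 0.0662).

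Of the 9 tested genes of arginine and citrulline use, CM raised 4 and lowered 1 in KO, and raised 2 and lowered 0 in WT. Gatm, which uses arginine for creatine, rose by 0.80 ± 0.10 in KO (edgeR adjusted p = 1.35e-05) and by 0.80 ± 0.09 in WT (edgeR adjusted p = 2.4e-06). In control medium Ass1, which makes argininosuccinate from citrulline, was lower in KO than in WT (-0.66 ± 0.12, edgeR adjusted p = 0.0071) and rose with CM in KO by 0.44 (edgeR adjusted p = 0.0141), with no call in WT (-0.10, edgeR adjusted p = 0.498). Leaving out KO CM library 3 or KO control library 2 ended the call in KO. The test of the difference between these responses did not pass (0.55 ± 0.17, edgeR adjusted p = 0.395). Asl, the next enzyme of the cycle, was higher in KO by 0.23 without CM (edgeR adjusted p = 0.0471), a call lost against WT libraries 1 and 2 alone (0.20, edgeR adjusted p = 0.144) and in 11 of the 14 fits that left out 1 library. Nos2, the competitor for arginine, had 76 counts over all 14 libraries and was not tested. It had 0 counts in all 3 KO libraries in CM and 2, 13 and 3 in KO in control medium, against 0, 0, 2 and 27 in WT in CM and 4, 0, 16 and 9 in WT in control medium. The counts in WT in CM were thus nearly all from library 4. Otc and Cps1, the mitochondrial urea cycle enzymes, had 0 counts in all libraries. In arginine transport, 2 of 5 genes fell with CM in each genotype and none rose: Slc3a2, the shared heavy chain, by 0.38 in KO and 0.42 in WT, and its light chain partner Slc7a7 by 0.41 in KO and 0.50 in WT. The Slc7a7 call in KO was lost without KO CM library 1 or KO control library 3.

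Of 6 tested genes of polyamine control and breakdown, CM lowered 2 in KO and 1 in WT and raised none. Smox, spermine oxidase, stood at 62.5 ± 5.90 CPM in KO in CM and 107 ± 10.0 CPM in KO in control medium (SD, n = 3 each), and at 67 ± 5.42 CPM in WT in CM and 82.5 ± 5.21 CPM in WT in control medium (SD, n = 4 each). It fell with CM by 0.78 ± 0.09 in KO (edgeR adjusted p = 4.55e-06) and by 0.30 ± 0.08 in WT (edgeR adjusted p = 0.00595), and like the antizyme genes Oaz1 (0.64, edgeR adjusted p = 0.0488) and Oaz2 (0.28, edgeR adjusted p = 0.049) it was higher in KO than in WT without CM (0.38, edgeR adjusted p = 0.0174). The Smox call in control medium was lost without KO control library 2 or WT control library 3, those of Oaz1 and Oaz2 in 11 and 10 of the 14 fits that left out 1 library, and that of Oaz2 also against WT libraries 1 and 2 alone (0.18, edgeR adjusted p = 0.185). Against those 2 libraries Oaz1 was 0.39 higher (edgeR adjusted p = 0.0139). In the hypusine pathway, where spermidine modifies the translation factor eIF5A, CM raised Dohh by 0.31 in KO and 0.44 in WT and lowered Eif5a2 by 0.62 in KO and 0.44 in WT, and the other 2 of its 4 genes did not pass. The Dohh call in KO was lost without KO control library 3. Of 4 tested polyamine transport genes, CM raised 1 and lowered 1 in KO and lowered 1 in WT. In the methionine cycle, Ahcy rose with CM by 0.52 in KO and 0.33 in WT, and it was the one tested gene of these lists called between KO and WT in CM, at 15.6 ± 0.223 CPM in KO (n = 3) and 10.7 ± 0.814 CPM in WT (SD, n = 4; 0.55 ± 0.10, edgeR adjusted p = 0.00611). Within WT libraries 1 and 2 its increase with CM of 0.25 did not pass (edgeR adjusted p = 0.0776).

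Of 8 tested transcription factors known to act on Arg1 or Odc1, CM raised 5 and lowered 1 in KO, and raised 5 and lowered 2 in WT. Klf4 rose by 2.44 ± 0.11 in KO (edgeR adjusted p = 1.93e-10) and by 2.20 ± 0.10 in WT (edgeR adjusted p = 9.03e-11). Hif1a rose by 1.18 in KO and 1.09 in WT, Cebpb by 1.47 in KO and 1.33 in WT, and Stat3 by 0.58 in KO and 0.52 in WT. Pparg fell by 0.69 in KO and 0.78 in WT. Stat6 fell by 0.15 in WT (edgeR adjusted p = 0.0147), with no call in KO (-0.09, edgeR adjusted p = 0.165). None of these factors was called between KO and WT in CM, and their part in the Arg1 difference was not tested. In control medium Max was lower in KO than in WT (-0.22 ± 0.06, edgeR adjusted p = 0.0463). The Max call was lost against WT libraries 1 and 2 alone (-0.19, edgeR adjusted p = 0.121) and in 10 of the 14 fits that left out 1 library. Myc, a known activator of Odc1, did not pass with CM in KO (-0.14, edgeR adjusted p = 0.822) or WT (-0.26, edgeR adjusted p = 0.587).

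Over the 14 libraries, and among 9620 genes whose mean was at least 4 CPM, the genes most like Arg1 by Pearson correlation of log2(CPM + 0.5) were Ednrb (0.997), Idi1 (0.996) and Vcan (0.996). Ednrb, an endothelin receptor gene, averaged 956 CPM in KO in CM, 29.4 CPM in KO in control medium, 666 CPM in WT in CM and 25.2 CPM in WT in control medium. Most like Arg2 were Kif22 (0.992), C1ra (0.992) and Fgl2 (0.99), and most like Odc1 were Itgax (0.978), Tagln2 (0.973) and Nusap1 (0.97). These correlations describe a shared split between media, and the libraries of a medium are not independent points for them.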

How the data were processed

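Total RNA of 14 cultures was sequenced as paired reads of 150 bp from a stranded kit, per the labels' protocols. Raw counts per exon were deposited by the authors, after HISAT2 alignment to mm10 per the submitters' processing notes. The counting tool, its strand setting and versions are not given in the sources used here. The table held 427386 exon entries, of which 196941 repeated an exon of the same gene and were removed, and the remaining 230445 were summed over 25239 symbols. One fragment can add to more than one exon. Groups and replicate numbers came from the labels.

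Tests used edgeR 4.0.16 under R 4.3.3 (quasi-likelihood, TMM, filterByExpr with minimum count 10 and total 15) in one fit of 4 group means over 14 libraries, with Benjamini-Hochberg adjustment over 13311 genes in each of 5 comparisons. The SE of a fold change was taken from the F statistic and is approximate. The fit was tested on simulated counts of independent libraries with one spread for all genes. That simulation held no split like the one of the WT libraries, so it cannot show how the split affects the calls. The members and gene lists were chosen with earlier results of these data known. All 10 members and, per list, up to 3 called genes with the smallest p were eligible to be named, with Ezh2, Nos2 and the 3 genes most like Arg1, Arg2 and Odc1. Otc, Cps1, Myc, Mmp8, Prodh, Cebpb, Stat6 and Apoa2 were named after their values were seen. Exon coordinates and sequences are those of GENCODE M21 on GRCm38, the build mm10, matched to the entries by exon length. No 2 libraries were identical.

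In WT, same-numbered control and CM libraries deviated together (correlations 0.51 to 0.64), so the numbers pair the WT libraries by the rule used. Differently numbered WT libraries within the set 1 and 2 or the set 3 and 4 correlated as well (0.47 to 0.61). Those of different sets deviated in opposite directions (-0.6 to -0.5). Deviations were taken from the group mean, which by itself sets the parts of a split group against each other. Pairing by number therefore cannot be told apart from that split. In KO, same-numbered libraries did not deviate together (-0.05 to 0.07). Alternatives were other scalings and filters, DESeq2 1.42.0, only the compared groups, replicate and batch terms, other exon sums, a stricter threshold, WT subsets and each library left out.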

Additional observations from a re-analysis of the deposited data

How the results depend on the processing

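The 6 increases and 2 decreases with CM kept their direction in all fits, in both genotypes. The number of members called with CM was 7 or 8 without any one library, and 5 for CM in WT within WT libraries 1 and 2. For KO in control medium the number of members called was 2 with library totals alone and with the replicate block, 0 with only the compared groups, the most-counted exon or an adjusted p of 0.01, and 0 to 2 without one library. For KO in CM it was 1 without a filter, with DESeq2 (Slc7a2 and not Arg1), the replicate block, WT libraries 1 and 2, a batch term for WT libraries 3 and 4 or an adjusted p of 0.01, and 1 to 2 without one library. The block ended 1 call, Slc7a2 for KO in CM (0.41, edgeR adjusted p = 0.0697), and changed no call for CM in WT.

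All genes called for KO in control medium numbered 1501 with DESeq2, 283 with only the compared groups, 384 with the most-counted exon, 174 at an adjusted p of 0.01 and 224 to 1769 without one library. For KO in CM they numbered 1226 with DESeq2, 923 with the batch term, 173 at an adjusted p of 0.01 and 217 to 721 without one library. For the interaction they numbered 84 with DESeq2, 205 with the replicate block within genotype, 11 and 54 within WT libraries 1 and 2 or 3 and 4, 164 with the batch term and 0 to 2 without one library.

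Fold changes that turned sign were those of members not called. With library totals alone the median of all genes was -0.12 for CM in KO and -0.09 for CM in WT, and Amd1 was -0.06 and Azin1 -0.07 for CM in WT, Azin1 -0.04 for CM in KO, Amd1 0.03 for KO in CM and Sms -0.02 for the interaction. Within WT libraries 1 and 2, Amd1 was -0.03 for CM in WT. For KO in control medium Srm was -0.10, Sms 0.03, Oat -0.00 and Slc7a2 -0.02, and for KO in CM Amd1 was 0.16. The interactions were -4.06 for Arg1, 0.03 for Odc1 and -0.07 for Sms. Within WT libraries 3 and 4, Azin1 was -0.01 for CM in WT and the interaction of Srm -0.09. With the batch term Srm was -0.05 and Slc7a2 -0.01 for KO in control medium, and Srm -0.03 and Amd1 0.13 for KO in CM. With the replicate block Amd1 was 0.03 for KO in CM. With the most-counted exon Azin1 was -0.09 for CM in KO, Arg2 was -0.20 for KO in CM, and without CM the KO differences were -0.58 for Arg1, -0.00 for Odc1 and -0.08 for Sat1. The interactions were then 0.18 for Odc1 and -0.11 for Azin1. The interaction of Odc1 was 0.00 with DESeq2 size factors, without a filter and with DESeq2, which gave -0.02 for Arg1.

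Without one library, Amd1 and Azin1 each ranged from -0.05 to 0.09 for CM in WT, and Arg1 from -0.58 to 2.35 for KO in control medium. Between KO and WT in CM, Sms ranged from -0.12 to 0.01 and Amd1 from -0.07 to 0.07. The interactions ranged from -0.86 to 2.07 for Arg1, -0.06 to 0.06 for Odc1, -0.10 to 0.10 for Srm, -0.04 to 0.09 for Sms and -0.03 to 0.12 for Azin1. The Sat1 exon share difference for CM in WT ranged from -1.35 to -0.724 points and passed the exact test at its smallest possible value without WT CM library 4. That of Slc7a2 for CM in WT ranged from -1.39 to 3.22. The cause was not tested for any of these. Counts were low for Arg1 in control medium, Arg2 and the Slc7a2 exon pair.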

Other observations

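The members that fell with CM, Sms and Sat1, are also the 2 members on chromosome X. Of the 428 tested genes placed on chromosome X, 17.5% were called lower with CM in KO and 21.3% in WT, against 18.2% in KO and 18% in WT over all tested genes.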
